A study of Homo sapiens with 9 samples.

Results

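The SR family of splicing factors was followed in polysome-associated RNA of human breast cancer xenografts that either had or lacked added mesenchymal stem cells (MSC). Its 10 members here, SRSF1 to SRSF7 and SRSF9 to SRSF11, were taken by gene symbol, and all 10 were found among the 21619 genes of the count tables and passed the filter on low counts. All 9 tumours grew from MDA-MB-231 cells, an established triple-negative breast cancer line, that carried the ribosomal protein L10a tagged with EGFP. The cells were injected into the mammary fat pad, in 5 mice at a 1:1 ratio with MSC from human bone marrow (tumours M1, M6, M7, M10 and M15) and in 4 mice alone (A9, A11, A12 and A13). Each tumour came from its own mouse and was taken after 3 weeks. The sources used here name neither strain nor age of the mice, nor whether the tagged line is 1 clone. Polysomes were pulled from lysates of whole tumours with antibody to GFP, so RNA of untagged cells can only be carry-over, but that of human MSC cannot be told from cancer cell RNA by species.

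SR proteins bind pre-mRNA through RNA recognition motifs and recruit the splicing machinery through a tail rich in arginine and serine repeats. Their tail is phosphorylated by the SRPK kinases in the cytoplasm and the CLK kinases in the nucleus, which sets where they sit and what they bind. Many SR genes limit their own output by splicing in a poison exon that sends the transcript to nonsense-mediated decay. SRSF1 is known as an oncoprotein of breast epithelium when overproduced. The counts below are per gene and do not separate coding from decay-prone transcripts.

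The arginine and serine repeats that define the family can be read in the coding sequences. For the 3 members that passed the test of the comparison and for SRSF9, whose change had the opposite sign, the 30 codons with the most neighbouring arginine and serine codons are shown from GENCODE 29 transcripts, with arginine codons in capitals:
SRSF1: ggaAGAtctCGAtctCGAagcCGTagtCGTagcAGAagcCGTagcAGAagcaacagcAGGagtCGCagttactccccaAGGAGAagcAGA
SRSF3: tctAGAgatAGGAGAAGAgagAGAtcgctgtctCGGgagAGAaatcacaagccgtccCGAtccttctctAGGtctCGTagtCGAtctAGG
SRSF11: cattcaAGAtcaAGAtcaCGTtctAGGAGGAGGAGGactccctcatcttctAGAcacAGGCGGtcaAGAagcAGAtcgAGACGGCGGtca
SRSF9: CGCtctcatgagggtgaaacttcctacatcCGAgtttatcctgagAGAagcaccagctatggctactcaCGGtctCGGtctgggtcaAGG
In these stretches, codons for arginine and serine stood next to each other 21 times in SRSF1, 12 times in SRSF3, 15 times in SRSF11 and 7 times in SRSF9. Over whole coding sequences SRSF9 had the fewest such neighbours of the family, 4.07 per 100 codons, followed by SRSF11 with 8.26. The other 8 members ranged from 12.5 in SRSF1 to 23.5 in SRSF2. Transcripts annotated as targets of nonsense-mediated decay were listed in GENCODE 29 for all 10 members, with 6 for SRSF7 and 3 for SRSF1, against 35.7% of 17480 coding genes in the tables. Retained-intron transcripts were listed for 8 members, SRSF6 and SRSF11 being the exceptions, against 48.5% of those genes.

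Each library held between 24616792 and 65275226 gene counts, and the members had 1966 to 44200 counts in a library, so counting error is small beside the spread between tumours. Levels are given in CPM, library-size normalised counts after TMM scaling, and changes as log2 with MSC minus without, ± SE. No library of total RNA was used here. RNA abundance and ribosome association therefore cannot be told apart, nor can fewer cells of a type and less RNA per cell. The line's own markers VIM, CD44, AXL, EGFR and MSN summed to 9170 to 14860 CPM with MSC and 8359 to 9625 without, and of 4 genes it should lack or hold at a low level PGR and CDH1 stayed below 0.1 CPM in every tumour. ESR1 was at most 0.208 CPM, and ERBB2 was 17.8 to 36.2 CPM (change 0.31, edgeR adjusted p = 0.196). CD44, AXL and EGFR themselves rose with MSC (0.61, 0.53 and 0.90, edgeR adjusted p = 0.00865, 0.0137 and 0.00498). The 10 fibroblast and MSC markers summed to 118 CPM in M15 and to 18.7 to 34.0 in the other tumours with MSC, against 13.04 to 22.8 without. COL1A1 alone made up 10.6 to 55.4 CPM of this with MSC and 8.73 to 15.5 without. DCN was 18.9 CPM in M15 and at most 0.207 in every other tumour.

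SR family RNA was mostly lower in tumours grown with MSC. SRSF11, SRSF1 and SRSF3 fell, with changes of -0.55 ± 0.11, -0.41 ± 0.12 and -0.41 ± 0.12 (edgeR adjusted p = 0.00746, 0.0379 and 0.0486). In the background, 3.6% of the 13458 genes tested were called lower and 4.18% higher, 7.78% in either direction. SRSF2, SRSF4, SRSF5, SRSF6, SRSF7 and SRSF10 had negative changes of -0.26 to -0.40 that did not pass, and SRSF9 had a positive one of 0.32 that did not pass either. The median change of the 10 members was -0.33, against 0.0085 over all genes tested. At an unadjusted p under 0.05 in edgeR, 9 members were lower and 1 higher, with 11.8% of all genes lower and 12.8% higher at that level. The members were chosen with earlier results of these data known, so their counts beside these shares are a description and not a test. Summed over the 10 members, the family took 2025 ± 149 CPM with MSC (SD, n = 5) and 2508 ± 286 without (SD, n = 4).

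**Figure D1:**
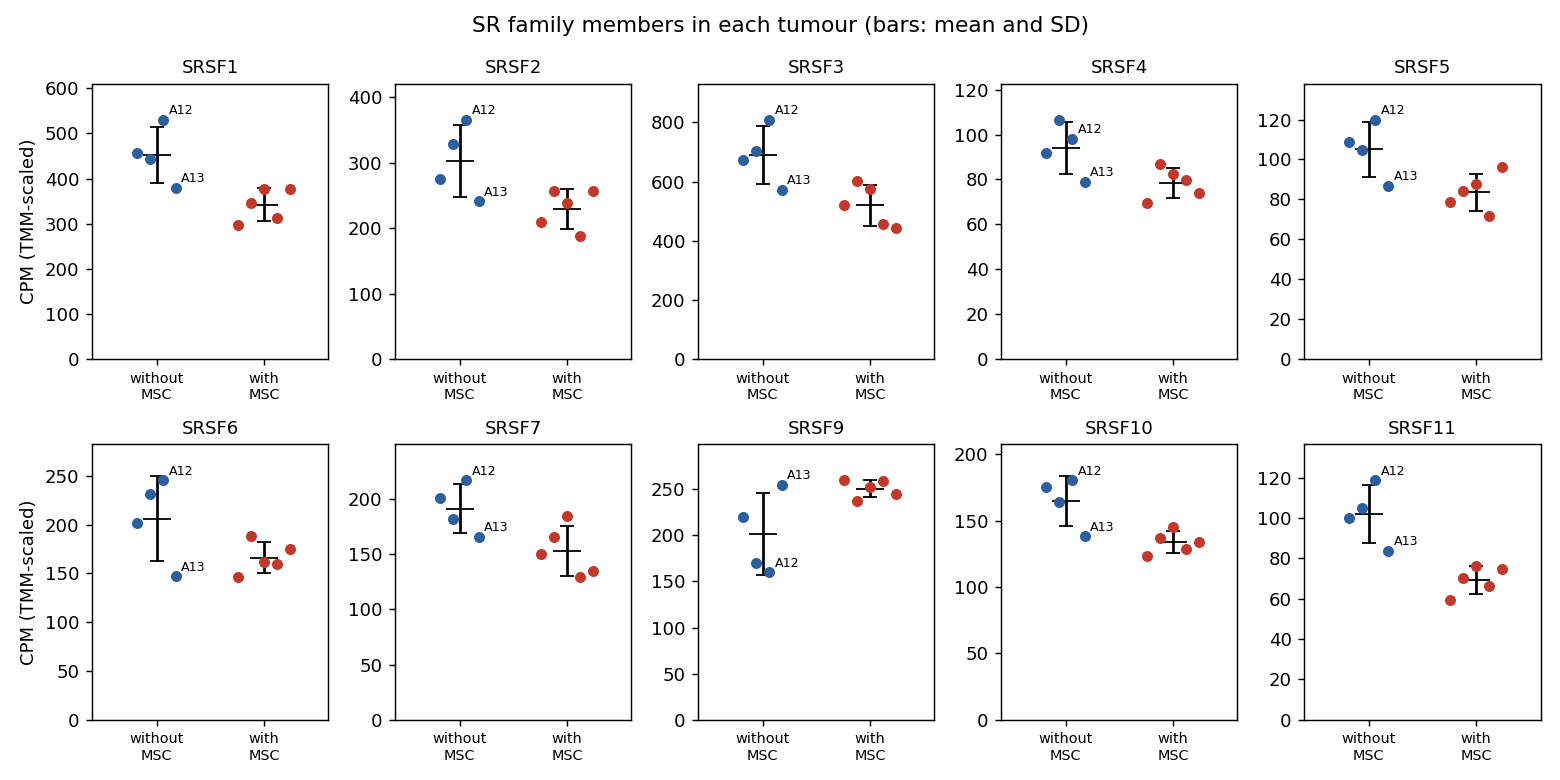
CPM of each SR family member (vertical axes from 0) in the 4 tumours without MSC (blue) and the 5 with MSC (red), 1 point a tumour, with mean and SD as black bars. A12 is the highest point of 8 panels and the lowest for SRSF9, and A13 lies near the tumours with MSC in most panels.

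SRSF11, an SR protein known to interact with the U2AF splice site factor, changed the most. It was 59.4, 70.5, 76.5, 66.1 and 74.9 CPM in M1, M6, M7, M10 and M15, and 99.9, 105, 119 and 83.8 CPM in A9, A11, A12 and A13. The groups did not overlap, as for 4.87% of all genes tested with the tumours with MSC on the lower side. The level was 1.47-fold lower with MSC, 69.5 ± 6.92 CPM (SD, n = 5) against 102 ± 14.4 (SD, n = 4). SRSF11 was also called in all 9 fits that left out 1 library, with changes of -0.63 to -0.48 and edgeR adjusted p of 0.00151 to 0.0404.

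SRSF1, the founding member with a pair of RNA recognition motifs, was 296, 346, 377, 312 and 377 CPM in M1, M6, M7, M10 and M15. Without MSC it was 457, 442, 531 and 379 CPM in A9, A11, A12 and A13. The groups did not overlap, but A13 lay only just above M7 and M15. SRSF1 overlaps exons of the coding gene AC015813.2 and of AC015813.5 in GENCODE 29, which can take or void some of its reads. The fold was 1.32, with means of 342 ± 36.7 CPM with MSC (SD, n = 5) and 452 ± 62.2 without (SD, n = 4). Its call was lost in 6 of the 9 fits without 1 library (M1, M6, M10, A9, A11 or A12), with edgeR adjusted p up to 0.169.

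SRSF3, the smallest SR protein and a partner of mRNA export, had the highest CPM of the family. With MSC it was 519, 601, 575, 457 and 444 CPM in M1, M6, M7, M10 and M15, and without MSC 672, 703, 810 and 572 CPM in A9, A11, A12 and A13. A13 lay below M6 and M7, so the groups overlapped. The means were 519 ± 69.4 CPM with MSC (SD, n = 5) and 689 ± 97.8 without (SD, n = 4). The call of SRSF3 was lost in 7 of the 9 fits without 1 library, all but those without M6 or A13, with edgeR adjusted p up to 0.210. It was also lost with DESeq2 size factors (edgeR adjusted p = 0.0514), with limma-voom (adjusted p = 0.0757), with a non-robust estimate of spread in edgeR (adjusted p = 0.0515) and after thinning to the smallest library (edgeR adjusted p = 0.0516).

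Of the other members with a single canonical recognition motif, SRSF2, a component of nuclear speckles, was 188 to 257 CPM with MSC and 275, 328, 366 and 241 CPM in A9, A11, A12 and A13. Its change of -0.40 ± 0.13 missed the threshold (edgeR adjusted p = 0.0584), and it passed without the filter, with the stricter filter and in DESeq2 (adjusted p = 0.0428, 0.0438 and 0.0293). SRSF2 shares exon sequence with MFSD11 in GENCODE 29, so its reads can be lost or misassigned. SRSF7, which carries a zinc knuckle beside its recognition motif, was 130 to 185 CPM with MSC and 166 to 217 without, and 2 of the 4 tumours without MSC lay above all with MSC (change -0.32 ± 0.12, edgeR adjusted p = 0.0932).

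SRSF4, SRSF5 and SRSF6 are close relatives with a pair of recognition motifs and long repeat tails. SRSF4 was 69.6 to 86.8 CPM with MSC and 79.0 to 107 without (change -0.26 ± 0.11, edgeR adjusted p = 0.141). For SRSF5 the ranges were 71.6 to 96.2 CPM with MSC and 86.8 to 120.0 without (-0.33 ± 0.11, edgeR adjusted p = 0.0734), and for SRSF6 147 to 189 and 147 to 246 CPM (-0.31 ± 0.13, edgeR adjusted p = 0.134). SRSF10, which acts as a splicing repressor when it loses phosphate in heat shock and mitosis, was 124 to 145 CPM with MSC and 138 to 180 without (-0.30 ± 0.10, edgeR adjusted p = 0.0735). In each of these 4 genes, as in SRSF2 and SRSF3, 3 of the 4 tumours without MSC lay above every tumour with MSC and A13 did not. The share of all tested genes with that pattern was not counted, so it only describes these members.

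SRSF9 is the closest relative of SRSF1, with a similar pair of recognition motifs and a short repeat tail. It was 260, 238, 252, 259 and 245 CPM in M1, M6, M7, M10 and M15. In A9, A11, A12 and A13 it was 220, 170, 160.0 and 255 CPM. The tumours with MSC were close together, while those without spread widely and A13 lay among the former. The change of 0.32 ± 0.12 did not pass (edgeR adjusted p = 0.114). The log2 ratio of SRSF9 to SRSF1 counts, which needs no library scaling, was -0.62 to -0.19 with MSC and -1.06, -1.38, -1.73 and -0.57 in A9, A11, A12 and A13. On average the ratio was higher with MSC by 0.75 (exact two-sided permutation p = 0.0238, n = 5 and 4, smallest possible p = 0.00794). This pair was chosen after its values were seen, so the p values of the ratio are a description and not a test. The ratio does not correct for GC content, which is 52.3% in SRSF9 and 41.2% in SRSF1. With any 1 library left out the difference in the ratio was 0.56 to 0.95. The exact permutation p was 0.0536 to 0.0857 in 8 fits and 0.0179 without A13. GENCODE 29 gives SRSF9 exon sequence in common with GATC, and lists a processed pseudogene each for SRSF1, SRSF9 and SRSF10, which can divert their reads.

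**Figure D2:**
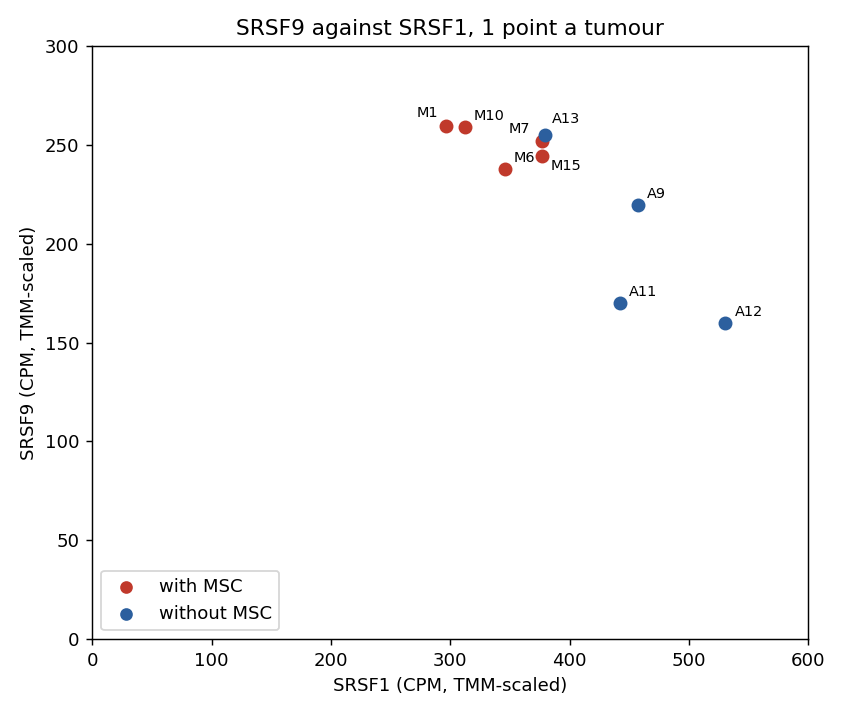
SRSF9 (vertical axis, CPM) against SRSF1 (horizontal axis, CPM), both from 0, 1 point a tumour (red with MSC, blue without). A9, A11 and A12 lie at higher SRSF1 and lower SRSF9 than the 5 tumours with MSC, and A13, at 379 and 255 CPM, lies beside them.

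Tumour A13 carried much of the spread without MSC. Across the 10 members its summed level was 2148 CPM, inside the range of 1851 to 2180 with MSC, while A9, A11 and A12 had 2501, 2536 and 2846 CPM. When A13 was left out, 9 members were called lower and SRSF9 was called higher in edgeR, in a fit that called 6.4% of all genes lower. A12 was the highest tumour for 8 members, all but SRSF4 and SRSF9, and the lowest for SRSF9. When A12 was left out, only SRSF11 was called, and 0.69% of all genes were called lower. SRSF11 was likewise the only member called without M1, M10, A9 or A11, in fits that called 1.44%, 1.44%, 1.02% and 2.19% of all genes lower. No label sets A12 or A13 apart from the other tumours without MSC.

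**Figure D3:**
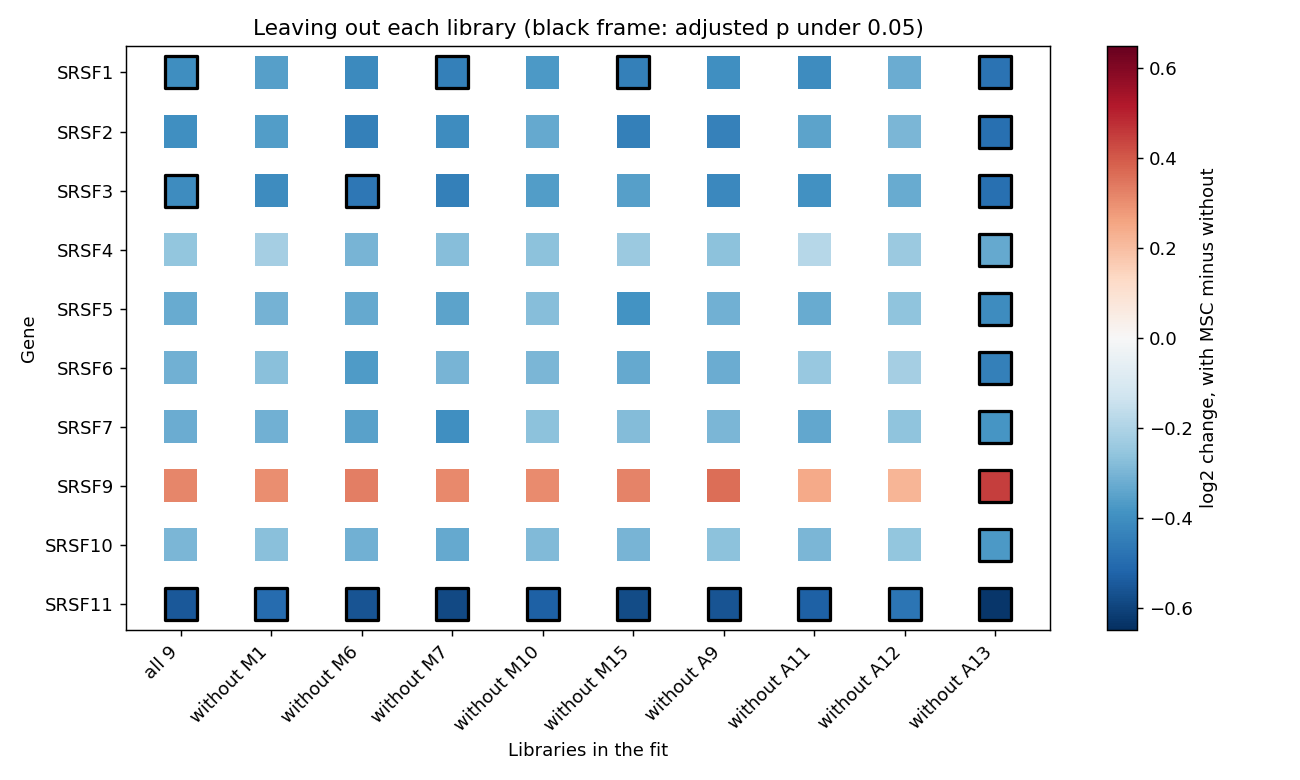
Log2 change of each member (rows, colour scale from blue for lower to red for higher with MSC) with all 9 libraries and with each left out in turn (columns), a black frame marking an edgeR adjusted p under 0.05. SRSF11 is framed in every column, and all 10 genes are framed without A13.

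Per kilobase of the longest coding transcript, which allows genes to be compared, SRSF9 and not SRSF3 had the highest level of the family. It was 209 ± 7.88 CPM per kilobase with MSC (SD, n = 5) and 167 ± 36.9 without (SD, n = 4). SRSF3 (123 ± 16.4 and 163 ± 23.2), SRSF1 (110 ± 11.8 and 145 ± 19.95) and SRSF2 (79.6 ± 10.6 and 105 ± 19.2) followed on that scale. SRSF9 and SRSF3 were apart by more than their SD with MSC but not without, and SRSF3 and SRSF1 did not differ beyond the SD of SRSF3 in either group. SRSF7 was next (61.5 ± 9.11 with MSC). SRSF6, SRSF10, SRSF4 and SRSF5 (38.4 ± 3.70, 38.3 ± 2.35, 32.9 ± 2.85 and 29.7 ± 3.29 with MSC) followed. Neither SRSF6 and SRSF10 nor SRSF4 and SRSF5 differed by more than the larger SD of the pair. All these SD give the spread between tumours, and genes were not compared pairwise within a tumour. SRSF11 was lowest at 18.4 ± 1.83 with MSC, and its mean over all 9 tumours, 22.2 CPM per kilobase, lay above that of 77.4% of tested genes with a known length. The median in place of the longest transcript length was tried only for means over all 9 tumours. There SRSF9 stayed first and SRSF11 last, SRSF1 passed SRSF3, and SRSF6 moved from 6th to 9th. The order in tumours without MSC alone was not ranked with the median length and can differ. Within the family's summed CPM, SRSF9 made up 12.4 ± 1.303% with MSC and 8.24 ± 2.75% without, and SRSF11 3.43 ± 0.251% and 4.05 ± 0.127%.

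The genes around the SR proteins were compared through 4 lists. Their counts of calls stand beside 3.6% of all 13458 genes tested called lower and 4.18% called higher. These lists, too, were chosen with earlier results known, so the counts are a description. Of 33 tested SR-related proteins 7 fell and none rose, with a median change of -0.22 and 28 negative values. RBM25, a speckle protein that regulates splice site choice, had the largest change and was 57.1 ± 5.73 CPM with MSC (SD, n = 5) against 86.0 ± 18.7 without (SD, n = 4), a change of -0.59 ± 0.13 (edgeR adjusted p = 0.0111). Next by p were the zinc finger splicing protein ZRANB2 (-0.43 ± 0.11), SREK1 (-0.43 ± 0.11), SRSF8 (-0.36 ± 0.10), the 3' splice site factor U2AF1 (-0.42 ± 0.12) and the splicing coactivator SRRM1 (-0.41 ± 0.12). The last of the 7, LUC7L3, was -0.47 ± 0.13. SRSF8 carries the tag retrogene in GENCODE 29 and is a relative of SRSF2, so reads of the pair can be shared. SRSF12, the remaining SRSF gene, did not pass the filter, with 0 to 12 counts in a library. The count of 7 was 0 without A12, 1 without M1 or A9, 2 without M10 and 3 without A11. The shares of all genes called lower in these fits were 0.69% (A12), 1.44% (M1), 1.02% (A9), 1.44% (M10) and 2.19% (A11). U2AF1 and LUC7L3 also lost their calls after correction for GC content and length. There U2AF1 had -0.35 (edgeR adjusted p = 0.0663), while LUC7L3 had -0.48, about the size it had before (edgeR adjusted p = 0.0724).

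Among the kinases of SR proteins only CLK1 passed the test, and it rose. CLK1, a nuclear kinase that phosphorylates the arginine and serine repeats, was 39.6, 47.2, 45.4, 45.9 and 45.8 CPM in M1, M6, M7, M10 and M15, and 27.9, 29.2, 23.5 and 33.9 CPM in A9, A11, A12 and A13. The groups did not overlap, as for 5.13% of all genes with the tumours with MSC on the higher side. The change was 0.64 ± 0.12 (edgeR adjusted p = 0.00483), and CLK1 was called in all 22 alternative fits, with adjusted p of at most 0.0281. The other 7 tested kinases did not pass, among them the cytoplasmic kinase SRPK1 with 162 ± 10.9 CPM with MSC and 165 ± 25.1 without (change -0.029 ± 0.11). CLK3 had a change of 0.27 ± 0.13 (edgeR adjusted p = 0.201). Of the 8 tested kinases, CLK1 included, 4 had positive and 4 negative changes. Their median, CLK1 included, was 0.018.

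Of 7 genes of SR protein transport and dephosphorylation, 1 fell: PPP1R8, a nuclear regulator of protein phosphatase 1, from 106 ± 19.4 CPM without MSC (SD, n = 4) to 76.9 ± 4.72 with MSC (SD, n = 5), a change of -0.46 ± 0.11 (edgeR adjusted p = 0.0201). Its call was lost without A9 or A12. The nuclear import receptor of SR proteins, TNPO3, had -0.30 ± 0.11 and did not pass (edgeR adjusted p = 0.0846). Of 14 genes of nonsense-mediated decay and the exon junction complex none passed in edgeR, and 1 had an unadjusted p under 0.05. The smallest p values were those of SMG8 (-0.39 ± 0.17, edgeR adjusted p = 0.163) and RBM8A (-0.20 ± 0.11, edgeR adjusted p = 0.284).

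**Figure D4:**
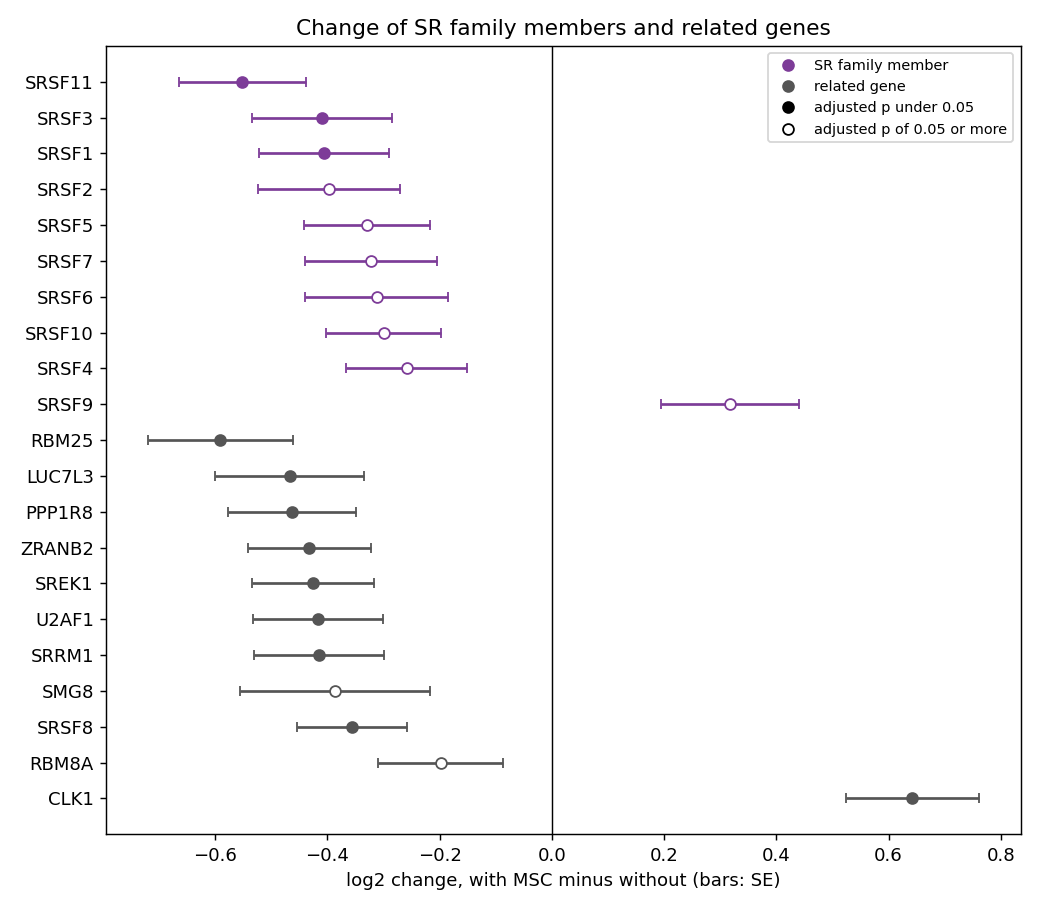
Log2 change with MSC minus without (horizontal axis, bars are SE) for the 10 members (purple) and 11 genes of the related lists (grey), filled where the edgeR adjusted p is under 0.05. CLK1 at 0.64 and SRSF9 at 0.32 are the only genes drawn to the right of 0.

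Gene patterns most like the mean of the 10 members over the 9 tumours were those of HNRNPD, an AU-rich element binding protein (Pearson r = 0.989), MAPK1IP1L (0.984), CHCHD7 (0.983), TAF5, a subunit of the general transcription factor TFIID (0.980), and HMGB2, a chromatin protein (0.979). These r values over n = 9 tumours are a description. They share the group difference and the library scaling with the members, and 252 of 12604 genes ranked had r over 0.9. HNRNPD was 294 ± 15.7 CPM with MSC (SD, n = 5) and 348 ± 30.5 without (SD, n = 4), and its change of -0.25 ± 0.10 did not pass (edgeR adjusted p = 0.132).

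Base composition moved with the comparison. GC content of the longest coding transcript was 36.2% in SRSF10 and 38.3% in SRSF11 at the low end, and 52.2% in SRSF4 and 52.3% in SRSF9 at the high end. Over all genes with a GC value, the median change was -0.091 in genes of at most 41.0% GC and 0.18 in genes of at least 58.5% GC. Of the low GC set 6.25% were called lower and 1.16% higher, and of the high GC set 0.543% were called lower. SRSF3, SRSF6, SRSF7, SRSF10 and SRSF11 belong to the low GC set, and SRSF1, at 41.2%, lies just above it. The gap between these gene sets, low minus high GC, in a tumour's deviation from the gene means was 0.50 in A9 and 0.24 in A12, but -0.15 in A11 and 0.017 in A13, and -0.21 to -0.0022 with MSC. After correction for GC content and length only SRSF11 was called (-0.51 ± 0.12, edgeR adjusted p = 0.0215), while SRSF1 and SRSF3 had -0.35 ± 0.12 and -0.38 ± 0.14 (edgeR adjusted p = 0.0848 and 0.101). SRSF9 had 0.31 ± 0.12 after the same correction, and the median of the members was -0.32, with that of all genes at -0.053. Whether base composition sets part of the SR family's values was not tested further.

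**Figure D5:**
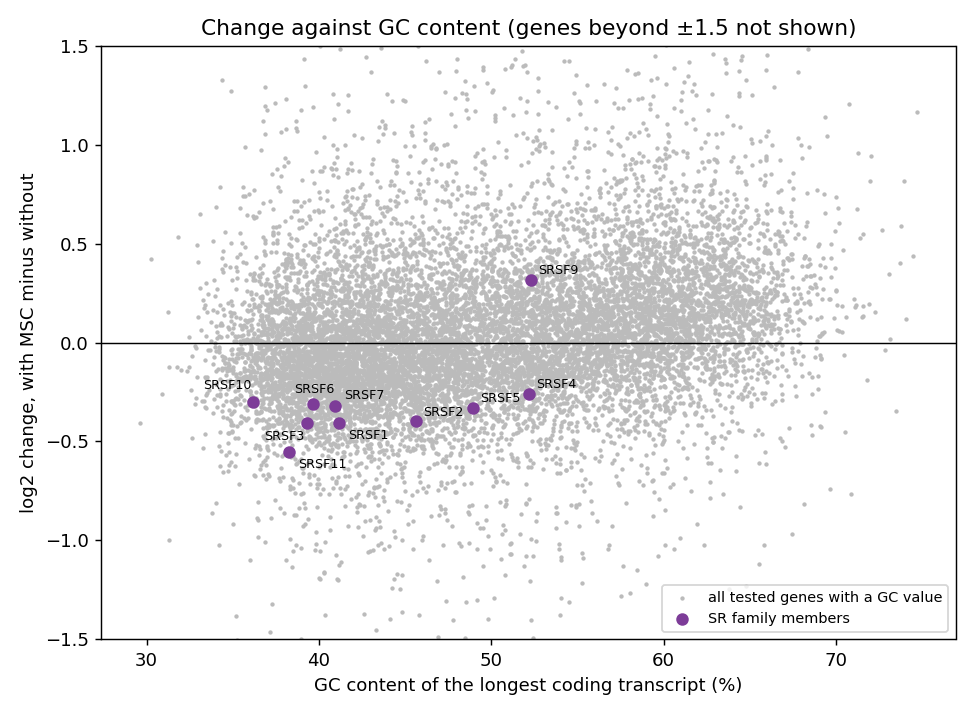
Log2 change (vertical axis) against GC content of the longest coding transcript in % (horizontal axis) for tested genes (grey) and the 10 members (purple). SRSF9 and SRSF4 have nearly the same GC content, 52.3% and 52.2%, with changes of 0.32 and -0.26.

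Single genes listed as markers of other cells also differed between groups, and whether other cells supplied their RNA was not tested. Endothelial markers summed to 4.91 to 7.26 CPM with MSC and 8.33 to 10.8 without. PECAM1 alone made up 3.77 to 6.04 and 6.79 to 9.62 CPM of this. Of the 2 of 5 that passed the filter PECAM1 fell (-0.94 ± 0.19, edgeR adjusted p = 0.00745) and KDR did not pass the test. CDH5, TEK and VWF were at most 0.14, 0.55 and 0.57 CPM in any tumour. The 5 leukocyte markers summed to 133 to 202 CPM with MSC and 88.7 to 132 without, but CD68 alone made up 131 to 202 and 88.4 to 131 CPM of this (change 0.52, edgeR adjusted p = 0.0371). CD14 had a change of -0.45 that did not pass (edgeR adjusted p = 0.726), PTPRC and ITGAM did not pass the filter, and CD3E was below 0.1 CPM in every tumour. PTPRC was 3.58 CPM in M1 and at most 0.54 in every other tumour. The 5 adipocyte markers summed to 0.264 to 5.17 CPM with MSC and 0.436 to 1.28 without. All 5 fibroblast markers that passed the filter had positive changes, but only COL1A2 passed the test (2.41 ± 0.51, edgeR adjusted p = 0.0104). The largest change of these was that of COL3A1, 3.37 ± 1.44, which did not pass. Without M15, the tumour with the highest sum of fibroblast and MSC markers, SRSF11 and SRSF1 were called and SRSF3 was not. That fit called 2.26% of all genes lower, and the median of the members was -0.35. The part of these markers in the SR family's values was not tested.

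As a last feature, the 250 bases before the transcription start were searched on both strands in RefSeq promoters (GRCh38.p14), which held 11 starts of 9 members and none of SRSF2. The windows of the 2 SRSF7 starts overlap. The TATA box TATAAA was found at 3 of the 11 (10.7% of 35116 promoters), the CCAAT box CCAAT at 1 (32.0%), the GC box GGGCGG at 4 (42.6%), the ETS core CCGGAA at 2 (14.5%), and the E-box CACGTG and the CRE TGACGTCA at 0 (6.34% and 1.65%). The SRSF3 promoter, the only one with both TATA and CCAAT matches, is shown from chr6:36594112-36594361 on the plus strand, with matches in capitals:
SRSF3: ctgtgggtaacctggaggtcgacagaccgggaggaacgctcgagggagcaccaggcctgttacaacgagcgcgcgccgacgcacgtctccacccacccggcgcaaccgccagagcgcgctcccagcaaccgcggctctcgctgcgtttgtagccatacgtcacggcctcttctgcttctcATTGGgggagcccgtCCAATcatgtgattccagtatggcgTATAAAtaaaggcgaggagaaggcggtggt
A match is a run of letters and not a measured binding site.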

How the data were processed

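Polysome-associated RNA of 9 tumours was sequenced from TruSeq libraries, per the labels' protocols. The deposited files hold raw counts per gene symbol. Per the submitters' processing notes the authors used TopHat 1.4.0, CASAVA 1.8.1, HTSeq and the build hg19. For annotation, counting settings, use of strand and removal of mouse reads, the entry is not given in the sources used here. Lines for reads assigned to no gene (10.2 to 12.1% of counts) were left out. No 2 libraries of a group agreed within sampling noise (smallest chi-square per degree of freedom 24.0).

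All genes were fitted with edgeR 4.0.16 in R 4.3.3: filterByExpr, TMM factors, glmQLFit with robust=TRUE, glmQLFTest, Benjamini-Hochberg adjustment over 13458 genes and a threshold of 0.05. SE is the change divided by the square root of F. Log2 CPM used a prior count of 2. Lengths and GC content came from GENCODE 29, matched by symbol or synonym to 95.7% of tested genes, and GC offsets from splines with 4 degrees of freedom. The fit and the correction were tested on simulated data. limma 3.58.1 and DESeq2 1.42.0 served alternatives. The members and the lists were chosen with earlier results of these data known. In each related list the called genes, up to 6 by p, or otherwise the 2 of smallest p are named. LUC7L3, SRSF12, SRPK1, CLK3 and TNPO3 were named after their values were seen.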

Additional observations from a re-analysis of the deposited data

How the results depend on the processing

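No member changed sign under any of the 13 alternative settings or the 9 fits without 1 library, and 9 members had negative changes in each. The count of members called lower (3) was 6 in the DESeq2 test, 7 at an adjusted p of 0.10, 1 without M15 and A12, 1 without A12 and A13 (added after seeing the data) and 1 with the GC and length correction. The share of all genes called lower, 3.6% at first, was 5.87%, 6.6%, 0.747%, 1.4% and 3.63% in these fits. The count of members was 2 with DESeq2 size factors, limma-voom, the non-robust estimate and thinning (shares of 3.53%, 2.15%, 3.14% and 3.7%). It was 4 without the filter and with the stricter filter (2.89% and 5.81%). With library size only and upper-quartile factors it stayed at 3 (3.06% and 3.47%). Without single libraries the count of members was 1 to 9, and the count called higher 0 to 1. SR-related proteins called lower (7) were 1 without M15 and A12 and 4 without A12 and A13, and 1 to 9 over the 13 alternative settings. Without single libraries they were 0 to 9, with 0 to 1 higher. Transport and phosphatase genes called lower (1) were 2 in the DESeq2 test and 2 at an adjusted p of 0.10, 0 without M15 and A12 and 0 without A12 and A13, and 0 to 2 without single libraries. The kinase count stayed at 1 higher and 0 lower and the decay count at 0 in all of these fits. Over all genes, 563 were higher and 484 lower in edgeR, 856 and 790 in DESeq2, 151 and 94 without A12, and 985 and 863 without A13. The balance turned with the GC and length correction (339 higher and 489 lower) and with library size only (389 and 412). Other library scalings moved the median of all genes by at most 0.0071. The cause of these differences was not tested. No paired analysis was possible because the groups share no replicate numbers.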
